A study of Mus musculus with 3 samples.

Results

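Mpped2, Ranbp17, Fam32a, Eef1d, Tigd5, Pop5, Vtn, Glyctk, Tnfrsf23 and Gadd45b are 10 of the 20665 protein-coding genes on chromosomes 1 to 19 of the mouse gene table used here. They were chosen by their normalised coverage: an end was covered in control organoids and its coverage fell in one or both libraries with active Braf. All contrasts between the control and the Braf libraries were thus used in the choice. The values below describe the genes, and no test was run on them. For each gene the 200-bp bins overlapping its span and 5 kb on either side were read.

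The DNA came from crypt organoids grown in Matrigel from the first 2.5 cm of the proximal colon of male mice, aged about 40 days, that were heterozygous for a Cre-activable BrafV600E allele (Braf+/LSL), an allele that stays silent until Cre recombinase removes a stop cassette. Braf full medium organoids received lentiviral Cre, were cultured for 5 months and then spent 3 weeks in full medium, which holds Wnt3a, R-Spondin, Noggin and EGF. Braf Base medium organoids also received Cre and 5 months of culture, and spent those 3 weeks in a medium that lacks stem-cell niche factors. EV, the control, received the lentiviral backbone alone, carries the allele unrecombined, and spent the same times in culture and in full medium. Each group is 1 library, so no difference between them has a replicate check. All 3 libraries bear the tag BRAF3 in their labels, which do not say whether it names a mouse, a clone or a line. Expression was not analysed here, so the colonic identity of the cells was not checked against marker transcripts.

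Methylation of cytosine at CpG sites is a stable chemical mark that is copied when DNA is replicated. Most CpG-rich gene starts are kept free of it, and a start that becomes methylated is usually silent. Activating mutations of Braf go together, in human serrated colorectal tumours, with a gain of methylation at many CpG islands. MBD-seq, used here, pulls down methylated fragments with a methyl-CpG-binding protein, and coverage rises with both the methylation and the number of CpG sites in a stretch. Fewer cells with a methylated copy and fewer methylated sites on each copy cannot be told apart in such data.

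The libraries held an estimated 8648828 reads (Braf full medium), 5985362 reads (Braf Base medium) and 5041726 reads (EV). Their backgrounds differed. Outside covered 1-kb tiles the mean normalised coverage per bin was 0.0400 in Braf full medium, 0.00603 in Braf Base medium and 0.00567 in EV. A value of about 0.04 to 0.06 in Braf full medium therefore lies at background, while in the other libraries it does not. Coverage below is the mean normalised coverage per bin, and in brackets full and Base stand for the Braf libraries in those media. Log2 ratios have a pseudocount of 0.0597, the mean coverage per bin, added to both libraries. A window was called lost at a log2 ratio of -1 or below and gained at 1 or above, where the higher library reached 0.119. Folds are plain ratios of coverage with 95% intervals from the exact binomial (Clopper-Pearson) method applied to estimated reads, which cover counting error only. No background was subtracted, so folds against EV are not directly comparable between the Braf libraries, whose backgrounds differed.

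The DNA letters upstream of gene starts that lay inside the blocks of coverage lost in Braf organoids are shown first. Each is the 250 bases upstream of a RefSeq start in the GRCm38.p6 assembly, which is mm10 under its other name, read 5′ to 3′ on the gene's strand, with each CpG in capitals. Gadd45b is added because its start was uncovered in EV and its block lay elsewhere in the gene. The comparison itself was made on blocks and end windows, and no printed stretch covers a whole block. The shared block of Eef1d and Tigd5 and the blocks of Vtn, Glyctk and Gadd45b held no RefSeq start with such a stretch.
Mpped2: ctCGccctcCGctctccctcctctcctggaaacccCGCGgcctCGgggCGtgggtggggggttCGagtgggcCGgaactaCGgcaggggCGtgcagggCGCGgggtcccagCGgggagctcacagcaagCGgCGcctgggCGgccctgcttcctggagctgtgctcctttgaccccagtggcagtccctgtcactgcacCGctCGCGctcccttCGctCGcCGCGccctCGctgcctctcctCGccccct
Ranbp17: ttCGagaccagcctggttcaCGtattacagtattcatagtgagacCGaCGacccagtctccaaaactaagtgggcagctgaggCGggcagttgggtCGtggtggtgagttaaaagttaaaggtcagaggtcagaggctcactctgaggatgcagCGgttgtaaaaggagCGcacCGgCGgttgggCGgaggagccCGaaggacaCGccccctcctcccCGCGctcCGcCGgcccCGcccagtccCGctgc
Fam32a: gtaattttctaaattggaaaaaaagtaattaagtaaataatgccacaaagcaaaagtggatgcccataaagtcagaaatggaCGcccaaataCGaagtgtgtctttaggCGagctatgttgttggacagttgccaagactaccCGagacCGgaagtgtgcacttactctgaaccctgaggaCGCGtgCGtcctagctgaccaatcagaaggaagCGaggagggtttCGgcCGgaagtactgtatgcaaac
Pop5: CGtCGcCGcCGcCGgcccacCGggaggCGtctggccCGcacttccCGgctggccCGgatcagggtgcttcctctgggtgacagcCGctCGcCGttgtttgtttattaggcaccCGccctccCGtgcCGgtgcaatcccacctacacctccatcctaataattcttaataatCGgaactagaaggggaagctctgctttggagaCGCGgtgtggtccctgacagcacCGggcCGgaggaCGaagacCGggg
Tnfrsf23: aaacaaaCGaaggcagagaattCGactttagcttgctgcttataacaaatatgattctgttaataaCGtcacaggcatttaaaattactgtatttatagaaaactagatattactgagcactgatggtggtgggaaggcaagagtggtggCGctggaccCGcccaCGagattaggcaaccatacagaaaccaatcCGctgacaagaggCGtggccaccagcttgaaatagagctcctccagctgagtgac
Gadd45b: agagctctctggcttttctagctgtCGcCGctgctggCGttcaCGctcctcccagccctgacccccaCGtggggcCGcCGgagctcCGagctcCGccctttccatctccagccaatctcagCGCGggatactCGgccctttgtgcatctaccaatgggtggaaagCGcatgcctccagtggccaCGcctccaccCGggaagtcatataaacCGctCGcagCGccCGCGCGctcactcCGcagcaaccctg
The Mpped2 stretch is chr2:106693299-106693548 on the plus strand, upstream of the middle of 3 annotated starts, and holds 25 CpG. It is the most CpG-rich of the 3, all inside the block; the stretches of the first and last start, not printed, hold 7 and 8 CpG. The Ranbp17 stretch is chr11:33513754-33514003 on the minus strand and holds 19. The Fam32a stretch, chr8:72219495-72219744 on the plus strand, holds 11. Pop5 (chr5:115235601-115235850, plus strand) holds 23 and Tnfrsf23 (chr7:143685876-143686125, minus strand) holds 8, while Gadd45b (chr10:80929841-80930090, plus strand) holds 22. Of 31396 RefSeq upstream stretches of this length on chromosomes 1 to 19, 11% held at least as many CpG as the printed Mpped2 stretch (46.8% and 43.5% as those of its first and last start), 13.7% as Pop5, 20.3% as Ranbp17, 36.1% as Fam32a and 43.5% as Tnfrsf23; the median was 6. CG was counted on 1 strand, since it reads the same on both. The lowered ends thus covered both CpG-rich starts and starts near the middle of the range.

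At every one of the 10 genes the lowered end held a narrow block of coverage in EV. A block is a run of bins at or above 0.119 in EV, with gaps of 1 bin bridged. Eef1d and Tigd5 share 1 block, so there were 9 such blocks, between 800 and 3200 bp long. Coverage in these 9 blocks was 0.0490 to 0.187 in Braf full medium, 0 to 1.10 in Braf Base medium and 1.56 to 2.35 in EV. Braf full medium kept 2.43% to 8.35% of the EV coverage. Braf Base medium kept 0% to 12.0% in 8 blocks and 46.9% in the block of Mpped2. Estimated reads in a block were 2 to 25 in Braf full medium, 0 to 192 in Braf Base medium and 54 to 301 in EV.

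**Figure D1:**
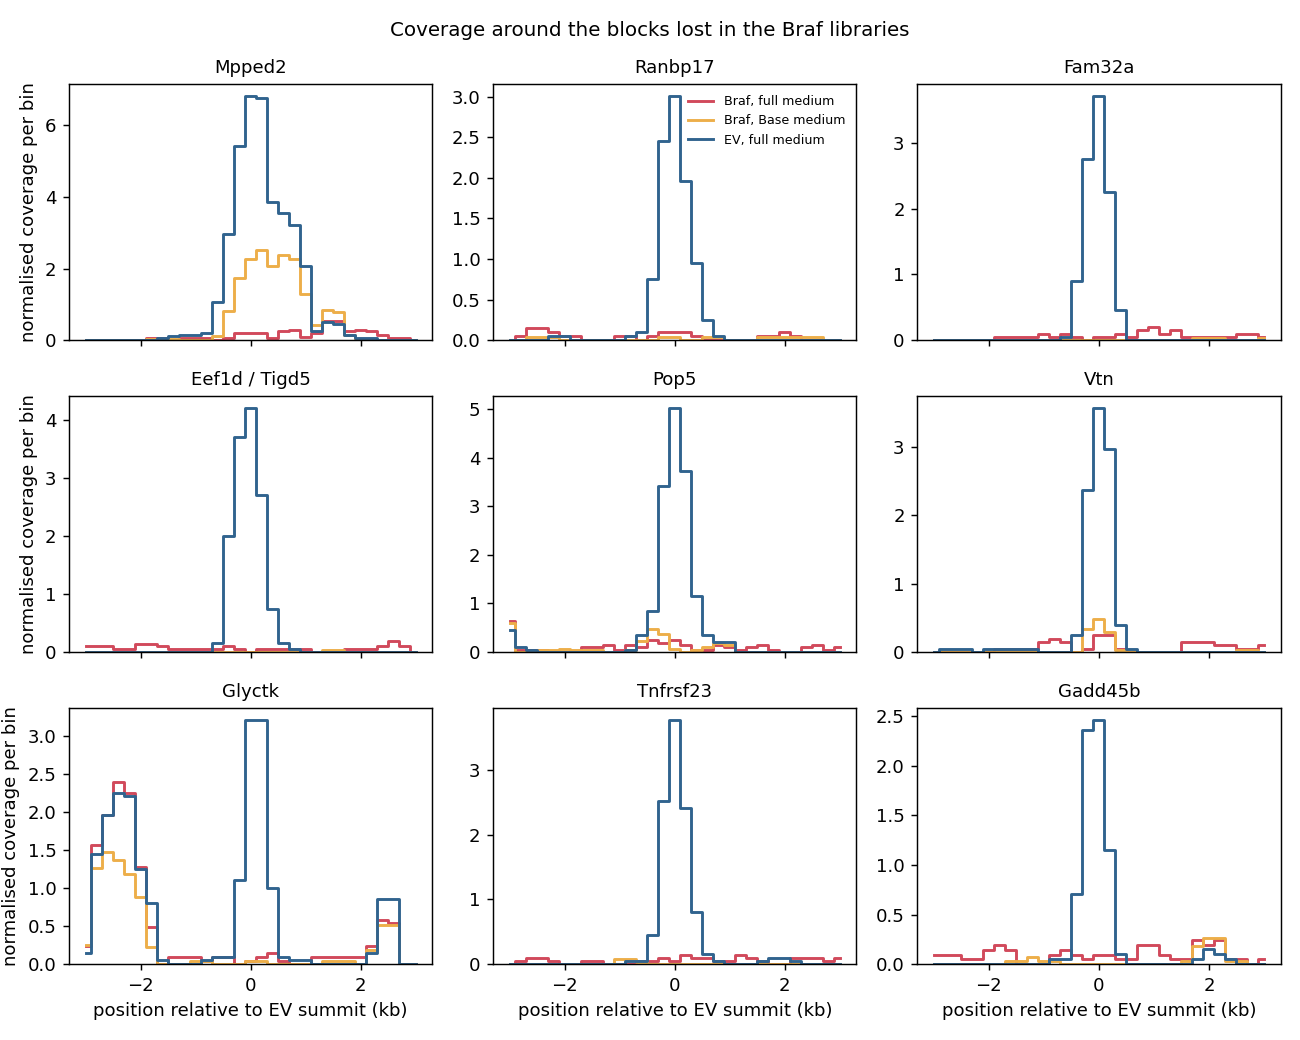
Normalised coverage per 200-bp bin (vertical axis) against position relative to the EV summit in kb, in the direction of the chromosome (horizontal axis), for the 9 blocks; each line is 1 library. At the summit bin Braf full medium has at most 0.245, Braf Base medium has 2.26 at Mpped2 and at most 0.482 at the others, and EV has 2.46 to 6.83.

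Mpped2, which encodes a metallophosphodiesterase, had the tallest block. It spans chr2:106692401-106695600 and holds all 3 annotated starts of the gene. Its coverage was 0.187 in Braf full medium, 1.10 in Braf Base medium and 2.35 in EV. Braf full medium was 12.6-fold lower than EV (interval 8.42 to 19.9), and Braf Base medium 2.13-fold lower (1.77 to 2.56). The Braf libraries differed from each other here, with Base medium 5.90-fold above full medium (3.92 to 9.44). At the EV summit the bin values were 0.196 (full), 2.26 (Base) and 6.83 (EV).

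The Mpped2 block did not fall evenly along its length. Before the dip that follows its summit (2400 bp, a split made after the values were seen), coverage was 0.122 in Braf full medium, 1.29 in Braf Base medium and 3.02 in EV. In the last 800 bp it was 0.380 (full), 0.546 (Base) and 0.339 (EV). That downstream shoulder was not lower in either Braf library than in EV, on 13 (full), 24 (Base) and 11 (EV) estimated reads. In Braf Base medium the bins 600 and 800 bp past the summit had 2.37 and 2.26, against 3.56 and 3.21 in EV, whereas 200 bp before the summit Base medium had 1.74 against 5.42 in EV. Braf Base medium thus kept more of the block on the side of the shoulder.

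Ranbp17 is a member of the importin-beta family, which carries cargo through the nuclear pore. Its block, chr11:33513001-33514200, lies over the start of this minus-strand gene. Coverage was 0.0653 in Braf full medium, 0.0185 in Braf Base medium and 1.56 in EV. Braf full medium was 23.9-fold lower than EV (8.67 to 131) and Braf Base medium 84.5-fold lower (17.7 to 4073), on 3 (full), 1 (Base) and 75 (EV) estimated reads. The same gene held other covered blocks far inside its body. One, at chr11:33428001-33428800, had 1.90 (full), 2.85 (Base) and 1.96 (EV). Another, at chr11:33220401-33221000, had 1.47 (full), 1.84 (Base) and 1.34 (EV). Neither was called in a Braf library, so loss at Ranbp17 was seen at its start.

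Fam32a encodes a nuclear protein found in the human spliceosome. Its start, chr8:72219401-72220400, had 0.0490 in Braf full medium, 0 in Braf Base medium and 2.02 in EV. Full medium was 41.2-fold lower than EV (11.4 to 358). Base medium had no overlap. Set at a floor of 3 reads in the block it was 36.6-fold lower, with the exact interval beginning at 29.1-fold. At the other end of the same gene the block chr8:72225001-72226200 had 6.10 (full), 5.62 (Base) and 6.37 (EV). Fam32a thus lost coverage at its start and was called in neither Braf library at its far end.

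Eef1d encodes the delta subunit of the exchange factor that recharges the elongation factor eEF1A. Tigd5 is one of the genes derived from Tigger transposons. The spans of the 2 genes overlap at the high end of Eef1d and the low end of Tigd5, so 1 block, chr15:75910001-75911400 inside the Tigd5 span, counts for both. It had 0.0490 in Braf full medium, 0 in Braf Base medium and 1.96 in EV. Full medium was 40.0-fold lower than EV (12.9 to 190.1). Base medium, set at the same floor, was 49.7-fold lower, with the exact interval beginning at 39.8-fold. In the window at the opposite, low end of Eef1d coverage was higher in both Braf libraries than in EV. The end window there, reaching 1 kb to each side, had 0.535 in Braf full medium, 0.623 in Braf Base medium and 0.151 in EV, which was called gained in both (log2 ratios 1.499 in full medium and 1.70 in Base medium). The full medium call ended when libraries were scaled to equal totals or with 4 times the pseudocount, and both ended with wider windows. The end window of the neighbour Naprt, a nicotinate phosphoribosyltransferase, overlaps it and had 0.619 (full), 0.674 (Base) and 0.246 (EV). The low-end window of Eef1d takes in part of the EV block chr15:75893001-75894400, which lies outside the Eef1d span. Over its whole length this block had 1.13 (full), 1.16 (Base) and 0.552 (EV). Its log2 ratios were 0.96 (full) and 0.99 (Base), and it was called in neither Braf library.

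Pop5, a protein subunit of RNase P and RNase MRP, which process transfer and ribosomal RNA, had lowered but not absent coverage in both Braf libraries. Its block, chr5:115234801-115236600, covers the annotated start. Coverage was 0.142 in Braf full medium, 0.181 in Braf Base medium and 1.70 in EV. Full medium was 12.0-fold lower (6.30 to 24.0) and Base medium 9.36-fold lower (5.58 to 16.04). The remainder in Base medium was highest at the upstream edge. The first 400 bp had 0.171 (full), 0.352 (Base) and 0.602 (EV), and the other 1400 bp had 0.133 (full), 0.132 (Base) and 2.01 (EV). This split too was made after the values were seen. Its first 400 bp held only 3 (full), 8 (Base) and 10 (EV) estimated reads. At the summit itself Base medium had 0.0741 against 5.02 in EV.

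Vtn encodes vitronectin, an adhesive glycoprotein of plasma and matrix that binds integrins. Its block lies inside the gene at the end opposite to its start, at chr11:78501201-78502200. Coverage was 0.118 in Braf full medium, 0.230 in Braf Base medium and 1.91 in EV. Full medium was 16.2-fold lower (6.57 to 50.7) and Base medium 8.30-fold lower (4.65 to 17.4). Here the residue in Base medium sat under the EV summit, with 0.482 against 3.56 in EV. The 250 bases upstream of the Vtn start had 0 (full), 0 (Base) and 0.0502 (EV), so that start was close to empty in every library. Sebox, whose low end lies next to the high end of Vtn, had 0.0668 (full), 0.00674 (Base) and 0 (EV) at that end.

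Glyctk encodes glycerate kinase, an enzyme of serine and fructose breakdown. Its block, chr9:106159601-106160400, lies at the upstream end of this minus-strand gene. The start in the RefSeq promoter table lies inside the gene, downstream of the block. The long non-coding gene D030055H07Rik overlaps the block too. Coverage was 0.0735 in Braf full medium, 0.0185 in Braf Base medium and 2.13 in EV. Full medium was 29.0-fold lower (9.54 to 302) and Base medium 115-fold lower (16.02 to 3698). The next block along, chr9:106156801-106158200, had 1.46 (full), 0.953 (Base) and 1.44 (EV), and was called in neither Braf library.

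Tnfrsf23 encodes a mouse decoy receptor that binds the death ligand TRAIL without passing on its signal. The block at its start, chr7:143685001-143686200, had 0.0898 in Braf full medium, 0 in Braf Base medium and 1.68 in EV. Full medium was 18.7-fold lower (7.02 to 53.9). Base medium, set at the floor of 3 reads, was 36.6-fold lower, with the exact interval beginning at 29.1-fold. A block in the gene body, chr7:143675401-143676000, had 0.588 (full), 0.543 (Base) and 0.535 (EV). Tnfrsf23 lies on distal chromosome 7 near a cluster of imprinted genes. Of 13 of those neighbours, none had an end lost in Braf full medium, where 1.13% of all genes did, and 1, Ascl2, had an end gained, where 8.55% did. That end of Ascl2 had 0.143 (full), 0.0168 (Base) and 0.00913 (EV), so its full medium value was little above the minimum for a call. In Braf Base medium Igf2, a fetal growth factor, and Th, tyrosine hydroxylase, had an end lost, where 2.61% of all genes did. The high end of Igf2 had 0.281 (full), 0.0135 (Base) and 0.370 (EV), and that of Th had 0.365 (full), 0.0337 (Base) and 0.507 (EV).

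Gadd45b encodes a stress-induced regulator of MAP kinase signalling that has been tied to active DNA demethylation in mouse neurons. Its CpG-rich upstream stretch had 0.0980 in Braf full medium and no overlap in Braf Base medium or EV. That value rests on very few reads, and the local mean background of Braf full medium was 0.0603 here, the highest of the 10 genes. The covered block lay at the far end of the gene, chr10:80931601-80932400. Coverage there was 0.0857 in Braf full medium, 0 in Braf Base medium and 1.67 in EV. Full medium was 19.5-fold lower (6.15 to 94.8). Base medium, set at that floor, was 24.2-fold lower, with the exact interval beginning at 19.2-fold. Beyond the gene, a block at chr10:80935801-80936200 had 0.661 (full), 0.796 (Base) and 0.351 (EV), and was called gained in Base medium on 17 estimated reads against 6 in EV.

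**Figure D2:**
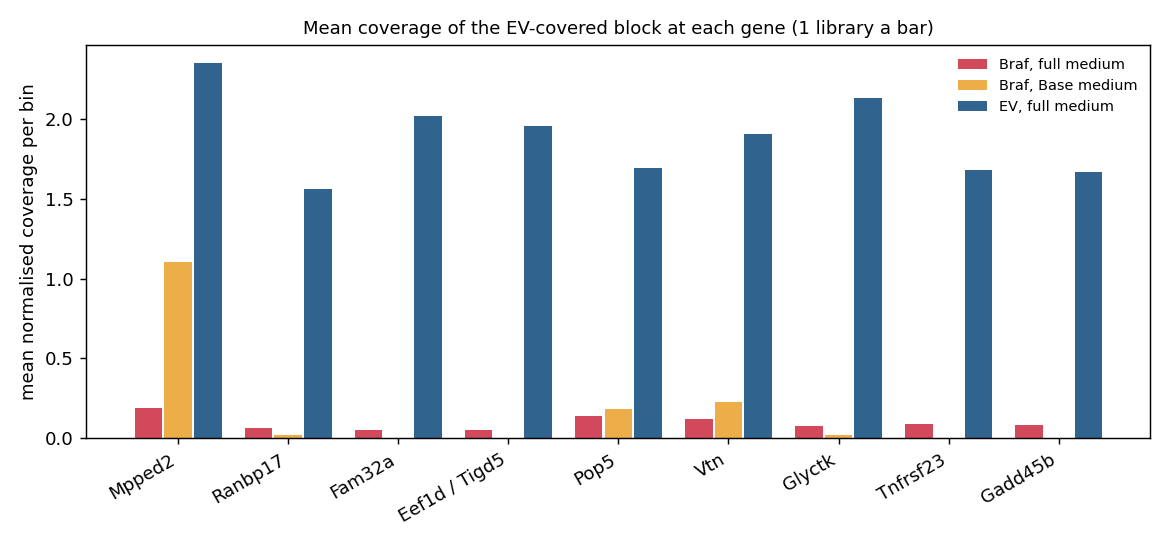
Mean normalised coverage per bin (vertical axis) of the EV-covered block at each gene, 1 bar for each library; bars start at 0 and have no error bars because each is 1 library. All Braf full medium bars lie at or below 0.187 and all EV bars at or above 1.56, and the Braf Base medium bar reaches 1.10 only at Mpped2.

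What remained in Braf full medium was near that library's own background. Relative to bins outside covered tiles in the surrounding 1 Mb, the 9 blocks had 0.897 to 4.84 times the local mean in Braf full medium, with a median of 1.56. In EV they had 128 to 483 times it. In Braf Base medium 4 of the 9 blocks had no read, and Pop5, Vtn and Mpped2 had 14.8, 26.9 and 210 times the local mean. Ranbp17 had 1.47 (full) and 2.94 (Base) times the same library's local mean, and Glyctk 1.56 (full) and 1.95 (Base) times. The summit bin of Eef1d and Tigd5 had no overlap in either Braf library. Around each gene the background was present in all libraries. As a multiple of the same library's genome mean, it was 0.965 to 1.51 in Braf full medium, 0.868 to 2.24 in Braf Base medium and 0.857 to 2.33 in EV.

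Most other blocks of the same loci were not called. The loci held 36 EV blocks, of which 27 lay away from the lowered end. Of those 27, 4 were lost with Braf in full medium, 7 with Braf in Base medium, and each of these held 10 estimated reads or fewer in EV. Over all chromosomes, 15% of 100706 EV blocks were lost in full medium and 33.9% in Base medium. Gained were 0 of the 27 in full medium and 1 in Base medium, against 2.35% in full medium and 2.14% in Base medium over all chromosomes. The 7 of the 27 with 30 or more reads in EV (a limit set after the values were seen) lay in the loci of Fam32a, Glyctk, Ranbp17 and Eef1d. They include the block chr15:75893001-75894400 beside the low end of Eef1d. Their log2 ratios ran from -0.15 to 0.96 in full medium and from -0.57 to 0.99 in Base medium, and none was called. Of all 32925 EV blocks of that depth, 5.89% were lost in full medium and 14.5% in Base medium; 0.702% were gained in full medium and 1.08% in Base medium.

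**Figure D3:**
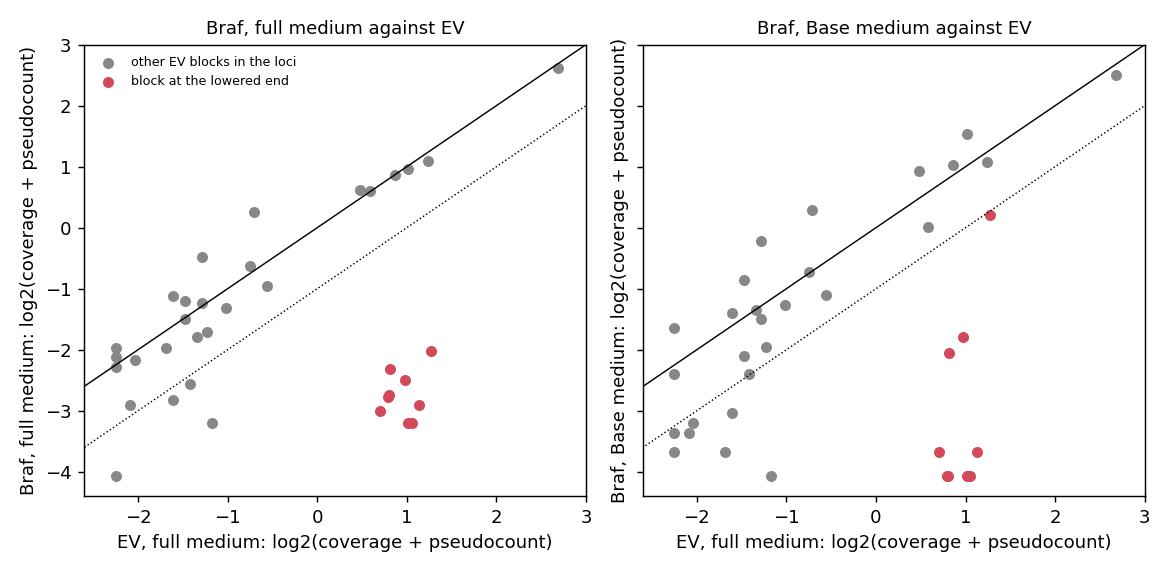
Log2(coverage + pseudocount) of the 36 EV blocks of the 10 loci in Braf full medium (left) and Braf Base medium (right) on the vertical axes, against EV on the horizontal axes; the solid line marks equal values and the dotted line a log2 ratio of -1. The 9 blocks at the lowered ends lie below the dotted line in both panels, with Mpped2 just under it in Base medium. The 7 other blocks with 30 or more EV reads lie between log2 ratios of -0.15 and 0.96 on the left and between -0.57 and 0.99 on the right.

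Counted by gene end, 10 of the 20 ends were called lost in Braf full medium, and 10 with Braf in Base medium, the same 10 in each, 1 for every gene. The rule chose them so. The lowered ends of Eef1d and Tigd5 were read from the same bins, so the 20 ends make 19 distinct windows. Over all 41330 gene ends, 0.602% were lost in full medium and 1.4% in Base medium. Of the 4913 ends at or above the minimum in EV it was 5.07% in full medium and 11.8% in Base medium. The contrast between the media changed with the settings. With local median background subtracted, 1.27% of all ends were lost in full medium and 1.40% in Base medium. With equal totals it was 2.29% in full medium and 1.32% in Base medium. The log2 ratios of the lowered ends ran from -4.20 (Mpped2) to -2.04 (Gadd45b) in Braf full medium and from -4.04 (Fam32a) to -1.46 (Mpped2) in Braf Base medium. No end of the 10 genes lay close to the threshold of -1 on the other side: the next lowest log2 ratios were -0.05 at the high end of Fam32a in full medium and -0.39 at the low end of Vtn in Base medium. Mpped2 had the lowest log2 ratio of all 249 ends lost in full medium and ranked 236 of 580 in Base medium. Fam32a ranked 4 in full medium and 1 in Base medium, and Gadd45b ranked 32 in full medium and 11 in Base medium.

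Of the 10 other ends, only the low end of Eef1d was called, as gained, in each Braf library, where 4.64% of all ends were gained in full medium and 3.23% in Base medium. Fam32a had 3.35 in Braf full medium, 3.08 in Braf Base medium and 3.48 in EV at its high end. The remaining 8 had at most 0.111 (full), 0.0573 (Base) and 0.0274 (EV). Those 8 ends were too little covered in every library to be called. Where RefSeq gave a strand, the lowered end was the gene's start side in Mpped2, Ranbp17, Fam32a, Pop5, Glyctk and Tnfrsf23, and its far side in Vtn and Gadd45b.

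**Figure D4:**
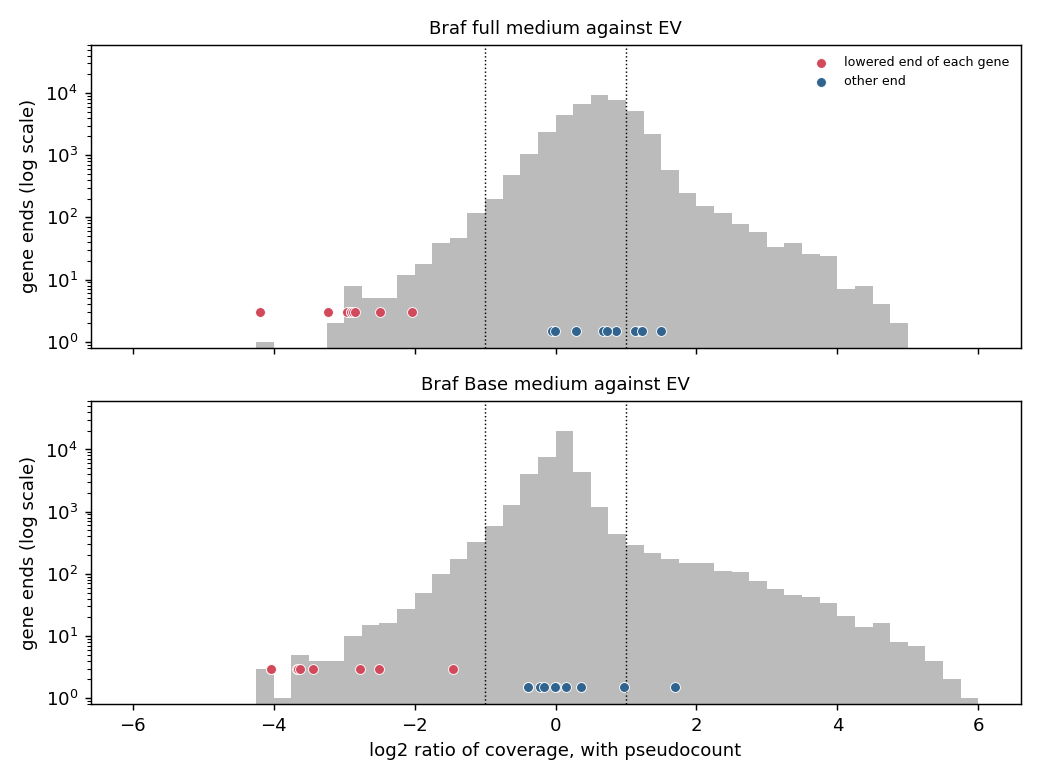
Histogram of log2 coverage ratios of all 41330 gene ends (number of ends on a log scale, vertical axis) for Braf full medium against EV (top) and Braf Base medium against EV (bottom); red points are the lowered end of each of the 10 genes, blue points their other end, and dotted lines mark -1 and 1. The red points lie in the left tail, from -4.20 to -2.04 on top and from -4.04 to -1.46 below; the median of all ends is 0.66 on top and 0 below.

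Between the Braf libraries, the low end of Mpped2 was the 1 end of the 20 that was called, as gained in Base medium against full medium (log2 ratio 2.74, with 0.872 in Base medium and 0.0802 in full medium). None was called lost, where 1.03% of all ends were gained and 2.94% lost. At Pop5 the end had 0.152 in Base medium and 0.134 in full medium, and at Vtn 0.104 in Base medium and 0.0668 in full medium. The other lowered ends had 0 to 0.0135 in Base medium and 0.0401 to 0.107 in full medium, all under the minimum of 0.119.

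Averaged over the whole gene and its 5 kb flanks, the losses were diluted. Tigd5 was the 1 locus called lost in Braf full medium (0.0764, against 0.218 in EV), where 0.0387% of all loci were. In Braf Base medium Tigd5 (0.0296, against 0.218 in EV), Pop5 (0.0513, against 0.224 in EV) and Vtn (0.0376, against 0.166 in EV) were called, where 0.208% of all loci were. No locus was called lost in Base medium against full medium, where 0.745% were. In EV the lowered block alone held 87.4% of the coverage of the Pop5 locus and 85.6% of that of Vtn, but 31.0% of that of Ranbp17 and 17.1% of that of Fam32a. With the block left out, the loci had log2 ratios of 0.04 to 0.92 in full medium and -0.45 to 0.48 in Base medium. The median over all 20665 loci, with nothing left out, was 0.49 in full medium and -0.002 in Base medium.

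Related genes were compared next: families, complex partners, receptors and chromosomal neighbours. Of 75 related genes in 10 lists, none lost coverage at an end in Braf full medium and 3 did in Braf Base medium, where 1.13% of all genes did in full medium and 2.61% in Base medium. Besides Igf2 and Th, this was Agxt, a glyoxylate-detoxifying aminotransferase with 0.245 (full), 0.0269 (Base) and 0.269 (EV) at its low end. In full medium 5 of the 75 gained, among 8.55% of all genes: Rpp25, an RNase P subunit, Itgb8, an integrin beta chain that can take part in binding vitronectin, Eef1a2, an elongation factor of muscle and nerve, Tigd3, and Ascl2, a transcription factor of intestinal stem cells. Rpp25 and Itgb8 were also the 2 that gained in Base medium, where 6.19% of all genes did. Rpp25 had 0.717 (full), 0.983 (Base) and 0.201 (EV) at its high end, and Itgb8 had 1.88 (full), 1.71 (Base) and 0.780 (EV). Tigd3 had 0.646 (full), 0.0269 (Base) and 0.0867 (EV) at its high end. Eef1a2 had 0.147 (full), 0.0236 (Base) and 0.0228 (EV), and Ascl2 had 0.143 (full), 0.0168 (Base) and 0.00913 (EV). The full medium values of Eef1a2 and Ascl2 were little above the minimum for a call, in the library with the raised background. No other member of the Mpped or Gadd45 families, and none of 18 other nuclear transport receptors, was called in any comparison. Nor was any of the 5 other genes listed with Tnfrsf23, which belong to its gene cluster or are tied to TRAIL. Of the 75, 7 were lost and 0 gained in Base medium against full medium, where 5.4% of all genes were lost and 2.02% gained.

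Ends elsewhere in the genome with the most similar 3 values were found by the smallest distance over the 3 log2 coverages with pseudocount. The high end of Pitx1 was nearest to Fam32a, Eef1d, Tigd5, Glyctk and Tnfrsf23, with 0.0624 in Braf full medium, 0.0168 in Braf Base medium and 0.643 in EV. Otud1 was nearest to Ranbp17 with 0.0490 (full), 0.0135 (Base) and 0.639 (EV), and Edil3 to Gadd45b with 0.125 (full), 0 (Base) and 0.429 (EV). Both ends of Cypt4 came up, the high end for Pop5 and the low end for Vtn, where it had 0.0757 (full), 0.0909 (Base) and 0.785 (EV). Mpped2 had the most distant match of the 10. Its nearest end, at Lin28b, lay 1.49 log2 units away with 0.267 (full), 0.768 (Base) and 1.38 (EV).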

How the data were processed

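Methylated DNA of 3 organoid libraries was captured with methyl-CpG-binding protein from 100 to 200 ng of sheared DNA (200 to 400 bp) and read as 50-bp single ends, per the labels' protocols. Bowtie2 and mm10 appear in the submitters' processing notes with no version. The steps from reads to bin values are not stated in the labels or headers. The authors deposited log2 values for 12313737 bins of 200 bp on chromosomes 1 to 19. On the linear scale each value equalled 0.0153, the same in all libraries, added to whole multiples of a library's own step (tolerance 0.001 of a step): 0.0490 in Braf full medium, 0.0370 in Braf Base medium and 0.0502 in EV. Whole numbers were taken as read overlaps, and overlaps times the step as normalised coverage, keeping the authors' scaling. Overlaps divided by 2.42, 2.48 and 2.49 bins a read, from isolated single reads, gave the estimated reads in the same order. Gene spans, strands and upstream stretches came from RefSeq tables on GRCm38.p6; upstream stretches matched 8 of the 10 genes, all but Eef1d and Tigd5. Which bases are exonic was not analysed here.

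An end window spans 1 kb before and after a gene's first or last base. Duplicate or PCR reads cannot be told from these values, so intervals and the floor of 3 reads cover counting error only. The call rule was also run on simulated counts with known drops, and the outcome is not reported here. Those counts held no difference in background between libraries, so they cannot judge calls under the raised background of Braf full medium. Named genes are the 10 members, genes of 10 related lists called against EV and the most similar ends. Of the neighbours with overlapping end windows, Naprt and Sebox were named and others were not. D030055H07Rik was named because it overlaps a block. Members and lists were chosen with earlier results of these data known. Python 3.11.15, numpy 2.4.6, scipy 1.17.1 and pandas 2.3.3 were used.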

Additional observations from a re-analysis of the deposited data

How the results depend on the processing

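The number of member gene ends lost was 9 to 11 of 20 in Braf full medium and 10 or 11 in Braf Base medium, against EV, under every alternative run: equal totals, equal medians of covered windows, local background subtracted, other pseudocounts, other minimums and other windows. The log2 ratio of every lowered end stayed below 0 in all 100 values of each comparison with EV. Eef1d and Tigd5, whose lowered ends share the same bins, are both counted in these numbers. The 1 call lost was that of Tnfrsf23 in full medium with the narrower end windows, where the log2 ratio was -0.60. Between the Braf libraries, 6 ends were lost with no minimum coverage and 0 otherwise; without a minimum 17.8% of all ends were. Over all gene ends, the number lost in full medium was 249 as reported and 67 to 946 under the alternatives, highest with equal totals; in Base medium it was 580 as reported and 132 to 778. The number of whole loci lower depended on the settings. In Braf full medium it was 1 as reported, 3 with equal totals, with local median or mean background subtracted, with 0.25 times the pseudocount or with a 2-kb flank, 4 with no flank, and 0 with 4 times the pseudocount or a minimum of 5 times the mean. In Braf Base medium it was 3 as reported, 5 with 0.25 times the pseudocount or a 2-kb flank, 7 with no flank, and 0 with 4 times the pseudocount or the higher minimum. A shorter flank gives the same block a larger share of the window; for the other settings the cause was not tested. Subtraction of the mean background was chosen after seeing the data. Equal totals would shift log2 coverage relative to EV by -0.70 for Braf full medium and 0.19 for Braf Base medium. No paired analysis was possible because each group holds 1 library. At this depth a block with no read in Base medium still allows a few reads, set here as a floor of 3.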
